A study of Mus musculus with 2 samples.

Results

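A set of 42 genes that carry calcium into the cytoplasm, clear it again, or pass its signal on through calmodulin, calcineurin and protein kinase C was examined in sorted mouse acute myeloid leukaemia (AML) cells. The genes were named by symbol, by role in the pathway, and all 42 were found among the 46095 genes of the count table. The study sequenced RNA of Mac1-positive, c-Kit-positive leukaemia-initiating cells from bone marrow of C57BL/6 mice aged 8 weeks. It holds 2 libraries, 1 labelled wild type (titled P2XT-Scr) and 1 labelled P2x7-KO (titled P2XT-KD), named below as the wild type-labelled and the P2x7-KO-labelled library. The gene P2rx7 encodes P2X7, a cation channel that opens when ATP binds. The labels do not say how the P2x7-KO cells were made, what drives the leukaemia in either group, or how many mice gave RNA to each library.

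Calcium signalling in blood cells starts at a receptor that activates a phospholipase C, which makes inositol trisphosphate and diacylglycerol. The former opens release channels in the endoplasmic reticulum (ER), the emptied store is sensed by STIM proteins, and these open ORAI channels in the plasma membrane. The raised calcium binds calmodulin, which switches on the calmodulin-dependent (CaM) kinases and the phosphatase calcineurin, and calcineurin sends NFAT transcription factors to the nucleus. Diacylglycerol and calcium together activate the conventional protein kinases C, while pumps return calcium to the store or out of the cell. P2X7, once opened by ATP, lets calcium through the plasma membrane directly.

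With 1 library in each group there was no replicate check and no test between genotypes. Counts summed to 12456212 in the wild type-labelled library and 12435916 in the P2x7-KO-labelled library. Levels are given as CPM, the count over the TMM-scaled library total times 1000000, and the ratio is that of P2x7-KO over wild type with an exact 95% interval. These intervals cover counting error only, not differences between mice or sorts. P2rx7, the targeted gene, had 229 and 543 counts, 2.27-fold higher (1.94 to 2.66) in the P2x7-KO-labelled library. Its log2 ratio of 1.18 became 0.89 (0.67 to 1.12) after the length and GC adjustment described below, which is under 2-fold. The targeted gene went against the label, so every direction below is between labels. The sort genes Kit (559 and 861 counts) and Itgam (2274 and 6910 counts, 2.90-fold higher) were present in both. In RNA from sorted cells, fewer cells of a type and less RNA per cell cannot be told apart.

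A gene was called at least 2-fold higher or lower when its ratio passed 2 in that direction and its interval excluded 1. This was asked of the 13363 genes whose counts in the 2 libraries summed to at least 20. Of the 42 calcium genes 41 reached that minimum, and Camk4, with 1 and 2 counts, did not. Called higher in the P2x7-KO-labelled library were 6 of 41 (14.6%), against 10.8% of all genes. Called lower was 1 of 41 (2.44%), against 8.95% of all genes. The 6 higher genes were Camk1d, Camk2d, Nfatc2, Atp2b1, Prkcb and Trpm7, and the lower gene was Prkca. The median log2 ratio of the 41 genes was 0.45, against 0.00 over all 13363 genes, and 32 of the 41 lay above equality. With 1.5-fold in place of 2-fold, 17 were higher (41.5%, against 21.1% of all genes) and 1 was lower (2.44%, against 18.9%). The interval excluded 1 on the higher side for 27 of 41 (65.9%, against 35.6% of all genes) and on the lower side for 6 (14.6%, against 34.7%). Such intervals are narrower for well-counted genes, and the calcium genes had a median of 2229 counts over both libraries against 681 for all genes.

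Transcript length moved with these ratios. Length is that of the longest GENCODE M21 transcript, taken among protein-coding ones where a gene has any. Over 12666 counted genes with such a transcript, the log2 ratio and this length had a Spearman correlation of 0.46. Over the 41 calcium genes the correlation was 0.44. Both are descriptions across genes that share the same 2 libraries. The median log2 ratio over all genes was -0.47 in the shortest of 4 equal bins, -0.13 and 0.12 in the middle bins, and 0.48 in the longest, from 4375 bases up. The calcium genes are long: their median transcript was 4758 bases against 2848 over all genes, and 23 of the 41 fell in the longest bin. In that bin 5 of the 23 were at least 2-fold higher, while 20.7% of all its genes were. The trend on length and GC content was therefore also subtracted, and "adjusted" below means after that step. When adjusted, 3 of 41 calcium genes were at least 2-fold higher (7.32%, against 7.71% of all genes) and 1 was lower (2.44%, against 5.38%). Those higher after adjustment were Camk2d, Nfatc2 and Prkcb, and the lower gene was Prkca. At 1.5-fold after adjustment 9 were higher (22.0%, against 14.9%) and 2 lower (4.88%, against 13.0%), and the median log2 ratio was 0.28 against -0.01. The adjustment turned the direction of 6 members, which are Orai1, Itpr3, Calm3, Nfat5, Ppp3ca and Atp2b4. What share of any single ratio belongs to length was not tested.

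**Figure D1:**
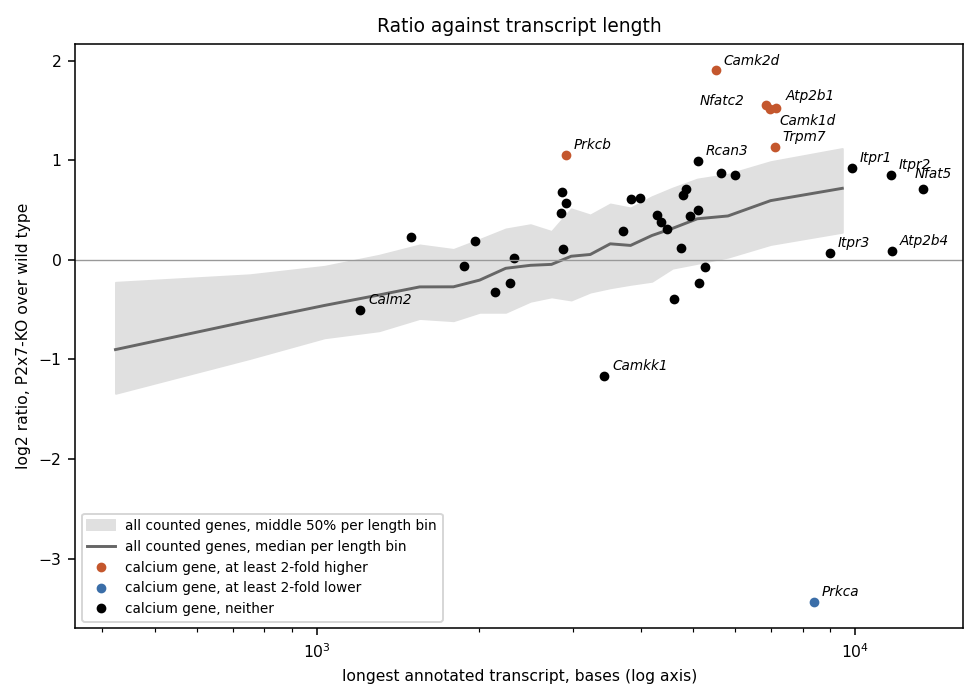
Ratio of each calcium gene (points, vertical axis, log2 of P2x7-KO over wild type) against transcript length (horizontal axis, bases, log scale). Length is that of the longest annotated transcript, protein-coding where there is one. The line and band give the median and middle 50% of all counted genes in 20 length bins. The line climbs with length, the 6 genes called higher lie above the band, and Prkca lies far below it at -3.44.

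The promoters of Rcan1 and Nfatc2 are shown as background to the calcineurin and NFAT genes given further on. Whether these windows relate to the counts was not tested. Rcan1 encodes an inhibitor of calcineurin that is known as an NFAT target from its internal start, and Nfatc2 is the NFAT gene whose ratio was furthest from 1. RefSeq (GRCm38.p6, the assembly that mm10 names) gives each of them 2 starts. The counts are per gene and do not separate these starts. The 250 bases before each start are printed 5′ to 3′ on the gene's minus strand, and capitals mark GGAAA, the NFAT core, read on either strand.
Rcan1 internal start, chr16:92400079-92400328: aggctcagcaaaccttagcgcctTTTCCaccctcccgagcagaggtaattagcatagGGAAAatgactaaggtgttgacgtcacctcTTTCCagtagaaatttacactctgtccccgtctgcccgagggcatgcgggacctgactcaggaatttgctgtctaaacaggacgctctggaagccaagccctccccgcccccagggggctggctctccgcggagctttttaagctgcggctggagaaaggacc
Rcan1 outer start, chr16:92466170-92466419: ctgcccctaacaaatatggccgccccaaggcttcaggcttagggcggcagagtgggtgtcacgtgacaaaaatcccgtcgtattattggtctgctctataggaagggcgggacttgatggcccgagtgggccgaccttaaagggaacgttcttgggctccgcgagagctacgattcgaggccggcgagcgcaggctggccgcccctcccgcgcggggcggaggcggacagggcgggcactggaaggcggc
Nfatc2 internal start, chr2:168590366-168590615: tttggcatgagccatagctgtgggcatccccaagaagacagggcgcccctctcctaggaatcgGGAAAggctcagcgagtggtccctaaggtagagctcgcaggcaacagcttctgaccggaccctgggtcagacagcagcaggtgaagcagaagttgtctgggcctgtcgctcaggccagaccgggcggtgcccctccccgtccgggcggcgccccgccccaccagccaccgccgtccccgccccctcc
Nfatc2 outer start, chr2:168601658-168601907: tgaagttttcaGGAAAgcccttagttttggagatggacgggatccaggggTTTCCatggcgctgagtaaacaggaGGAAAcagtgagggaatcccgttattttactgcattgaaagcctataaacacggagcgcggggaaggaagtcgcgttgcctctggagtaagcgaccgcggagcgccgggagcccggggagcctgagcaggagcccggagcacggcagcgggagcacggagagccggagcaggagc
None of the 4 windows overlapped a GENCODE exon. GGAAA occurred 3 times before the internal start of Rcan1 and 0 times before its outer start. Before the starts of Nfatc2 it occurred 1 time at the internal and 3 times at the outer start. Over all 32851 RefSeq windows of this length, 55.6% held GGAAA on either strand, and of the 43 windows of 34 matched calcium genes, 41.9% (18) did. The GC box GGGCGG was in 69.8% of the calcium gene windows (30 of 43) and in 32.7% of all windows. The remaining motifs searched on both strands were the PU.1 site GAGGAA (25.6% of calcium gene windows against 23.3% of all), the CRE core TGACG (20.9% against 17.8%), the AP-1 site TGANTCA (4.65% against 6.75%) and CCAAT (23.3% against 33.9%). GGAAA shares letters with GAGGAA where an A follows it. The windows of all 27025 genes were not matched to the calcium genes in level or GC content. A match describes the letters of these windows only.

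The phospholipases C, which make inositol trisphosphate and diacylglycerol, were led by the haematopoietic members. Plcg2, activated by tyrosine kinases, had 4228 counts in the wild type-labelled library and 6052 in the P2x7-KO-labelled library, 347.6 and 475.3 CPM (1.37-fold higher, 1.31 to 1.42). Plcb2, activated by G-protein-coupled receptors, had 5576 and 4979 counts, 458.4 and 391.0 CPM (1.17-fold lower, 1.13 to 1.22). The order of the pair thus differed between libraries: Plcb2 had more CPM per kilobase of transcript than Plcg2 in the wild type-labelled library (89.1 against 80.9) and less in the other (76.0 against 110.6). Plcg1, the widely expressed paralogue of Plcg2, was a small part of the family, with 173 and 256 counts. Its exons share 379 bases with those of Zhx3 on the opposite strand, which had 28 and 98 counts. Plcg1 made up 3.93% of Plcg counts (exact binomial interval 3.38 to 4.55) and 4.06% (3.58 to 4.57), intervals that overlap.

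ER release channels differed in how far they stood from equality. Itpr1, an inositol trisphosphate receptor gene, had 1046 and 2072 counts, 86.0 and 162.7 CPM (1.89-fold higher, 1.76 to 2.04). Itpr3 had 1439 and 1579 counts, 118.3 and 124.0 CPM, with an interval that includes equality (ratio 1.05, 0.98 to 1.13). Itpr2 was rare in both libraries, with 57 and 108 counts (1.81-fold higher, 1.30 to 2.54). Shares within the family do not depend on the scaling. Itpr1 took 41.1% of Itpr counts (39.2 to 43.1) in the wild type-labelled library and 55.1% (53.5 to 56.7) in the other, so that it replaced Itpr3 as the most counted receptor. The transcripts of Itpr1 and Itpr3 are of similar length, 9870 and 8990 bases, with GC contents of 49.5% and 57.5%. After adjustment their log2 ratios were 0.31 and -0.16.

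Store-operated entry genes stayed under 2-fold in either direction. Orai1, the main pore gene of the calcium release-activated channel, had 1381 and 1382 counts, 113.5 and 108.5 CPM, and the interval of its ratio of 0.96 (0.89 to 1.03) includes equality. Its log2 ratio of -0.06 turned to 0.00 with total count scaling and to 0.38 after adjustment. Orai2, a paralogue that forms channels with it, had 1319 and 2120 counts, 108.4 and 166.5 CPM (1.54-fold higher, 1.43 to 1.65). Orai3 had 695 and 580 counts, 57.1 and 45.5 CPM (ratio 0.80, 0.71 to 0.89). Orai2 accordingly made up 38.9% of Orai counts (37.2 to 40.5) in the wild type-labelled library and 51.9% (50.4 to 53.5) in the other. Transcript lengths were 1875 bases for Orai1, 3990 for Orai2 and 2141 for Orai3, and count shares are not adjusted for length. After adjustment Orai2 lay at a log2 ratio of 0.64 (0.54 to 0.74). Orai3 then lay at -0.07 (-0.24 to 0.09), an interval that includes equality. Per kilobase, Orai1 remained the highest of the family in both libraries, at 60.5 and 57.9 CPM per kilobase, with Orai2 at 27.2 and 41.7. The store sensor genes had like ratios before adjustment. Stim1 had 943 and 1286 counts (log2 ratio 0.38, 0.26 to 0.50) and Stim2 had 474 and 671 (log2 ratio 0.44, 0.26 to 0.61). After adjustment Stim1 lay at 0.34 (0.21 to 0.46). Stim2 then lay at 0.05 (-0.12 to 0.23), an interval that includes equality. Stim1 was 66.5% of Stim counts (64.0 to 69.0) in the wild type-labelled library and 65.7% (63.6 to 67.8) in the other, intervals that overlap.

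Of the other entry channels, Trpm7, a magnesium- and calcium-permeable channel fused to a kinase, was called higher. It had 857 and 1973 counts, 70.5 and 154.9 CPM (2.20-fold higher, 2.03 to 2.39), and its log2 ratio of 1.14 became 0.39 after adjustment, which is under 2-fold. Trpv2, a cation channel of leukocytes, had 719 and 1121 counts, 59.1 and 88.0 CPM (1.49-fold higher, 1.36 to 1.64). Its transcript is shorter, at 2909 bases against 7107 for Trpm7, and its log2 ratio of 0.57 became 0.68. After adjustment the order of the pair was thus the opposite of the unadjusted one.

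**Figure D2:**
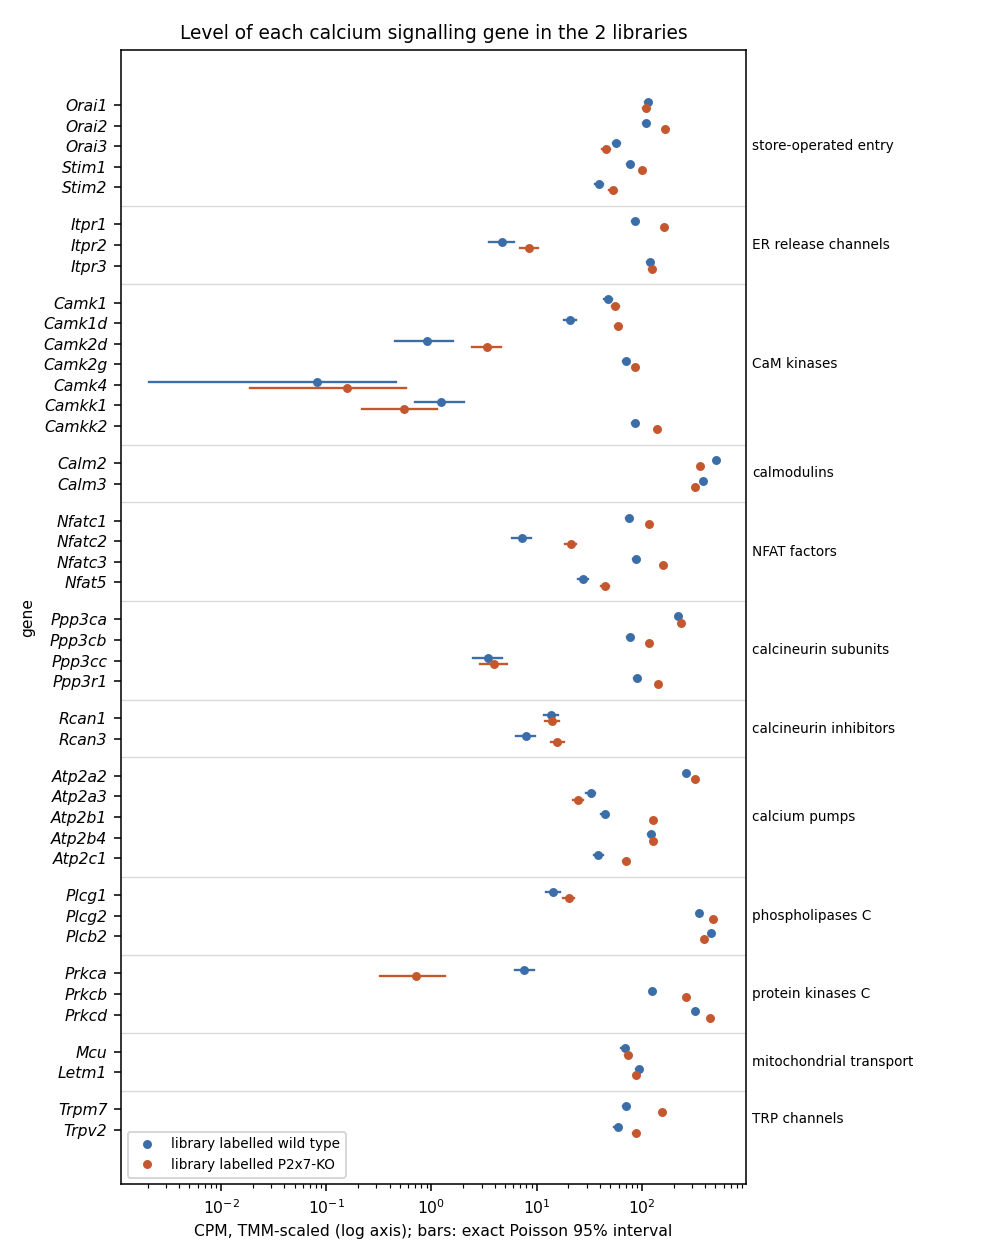
Level of each of the 42 calcium genes in the wild type-labelled library and the P2x7-KO-labelled library (horizontal axis, TMM-scaled CPM on a log scale; bars, exact Poisson 95% intervals), grouped by role. Levels run from Camk4, at 0.08 and 0.16 CPM, to Calm2 in the wild type-labelled library, at 511.2 CPM, and the intervals of the 2 libraries are furthest apart for Prkca.

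The pumps divided by gene. Atp2b1, which encodes a plasma membrane calcium pump, was called higher, with 538 and 1621 counts, 44.2 and 127.3 CPM (2.88-fold, 2.61 to 3.18). Its paralogue Atp2b4 had 1472 and 1640 counts, 121.0 and 128.8 CPM, a ratio of 1.06 whose interval (0.99 to 1.14) includes equality. Atp2b1 thus made up 26.8% of the counts of this pair (24.8 to 28.8) in the wild type-labelled library and 49.7% (48.0 to 51.4) in the other. Their transcripts are 7130 bases (Atp2b1) and 11725 bases (Atp2b4), and the log2 trend subtracted in the adjustment was 0.70 and 0.73. After adjustment Atp2b1 was under 2-fold, at a log2 ratio of 0.83 (0.68 to 0.97), and Atp2b4 lay at -0.64 (-0.74 to -0.54). Of the ER pumps, the widely expressed Atp2a2 had 3178 and 4107 counts (1.23-fold higher, 1.18 to 1.29), and Atp2a3, a pump of blood and epithelial cells, had 398 and 318 (1.31-fold lower, 1.13 to 1.52). Atp2a2 was 88.9% of the counts of this pair (87.8 to 89.9) and then 92.8% (92.0 to 93.6). The Golgi pump gene Atp2c1 had 470 and 901 counts (1.83-fold higher, 1.64 to 2.05). Its exons overlap those of Aste1 by 1837 bases on the opposite strand, so part of its counts may belong to that gene, which had 168 and 152 counts.

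Mitochondrial calcium transport genes were close to equality before adjustment. Mcu, the pore gene of the mitochondrial calcium uniporter, had 835 and 944 counts (ratio 1.08, 0.98 to 1.19). Letm1, an inner membrane cation exchanger gene, had 1135 and 1128 counts (ratio 0.95, 0.87 to 1.03). Both intervals include equality. After adjustment Mcu lay at a log2 ratio of 0.05 (-0.09 to 0.19), and Letm1 at -0.28 (-0.40 to -0.16).

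Calm2 and Calm3, which encode calmodulin, had lower levels in the P2x7-KO-labelled library under each scaling, with Calm3 turning to 0.14 (log2) after adjustment. Calm2 had 6219 and 4589 counts, 511.2 and 360.4 CPM (1.42-fold lower, 1.37 to 1.47), and Calm3 had 4603 and 4100, 378.4 and 322.0 CPM (1.18-fold lower, 1.13 to 1.23). Per kilobase Calm2 was the highest of the 42 genes in both libraries, at 424.3 and 299.1 CPM per kilobase. The transcript of Calm2 is the shortest among the 42, at 1205 bases. After adjustment Calm2 remained lower, at -0.41 on the log2 scale. These genes encode the same protein and have near-identical copies, and how reads that match more than 1 of them were counted is not stated, so these values are uncertain.

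The CaM kinases covered a wide range of levels. Camkk2, Camk2g and Camk1 were the most counted of the 7 in the wild type-labelled library. Camk1d, a CaM kinase I gene, had 254 and 758 counts, 20.9 and 59.5 CPM (2.85-fold higher, 2.47 to 3.30). Adjustment took its log2 ratio from 1.51 to 0.93 (0.73 to 1.14), just under 2-fold. Camkk2, the kinase that activates CaM kinases I and IV and AMP-activated kinase, had 1041 and 1784 counts, 85.6 and 140.1 CPM (1.64-fold higher, 1.52 to 1.77). Camk1 had 582 and 714 counts (1.17-fold higher, 1.05 to 1.31) and overlaps Ogg1 by 232 exonic bases on the opposite strand. Camk2g had 860 and 1103 counts (1.23-fold higher, 1.12 to 1.34) and accounted for 98.7% of the summed counts of Camk2g and Camk2d (97.8 to 99.4) in the wild type-labelled library. Camk2d, the other CaM kinase II gene, was rare, with 11 and 43 counts (3.73-fold higher, 1.89 to 8.03). It stood at 0.90 and 3.38 CPM, and stayed past 2-fold after adjustment, at a log2 ratio of 1.35 (0.37 to 2.45), an interval that reaches well under 2-fold. Camkk1 had 15 and 7 counts, and the interval of its ratio of 0.45 (0.15 to 1.16) includes equality. Camk4, a kinase known from lymphocytes and neurons, had 1 and 2 counts, within the 3 counts taken as the detection limit.

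Calcineurin subunit genes had ratios above 1 under each scaling, with Ppp3ca turning to -0.32 (log2) after adjustment. Ppp3ca, the most counted catalytic subunit gene, had 2669 and 3032 counts, 219.4 and 238.1 CPM (1.09-fold higher, 1.03 to 1.14). Ppp3cb, the second catalytic gene, had 942 and 1505 counts, 77.4 and 118.2 CPM (1.53-fold higher, 1.41 to 1.66). Ppp3r1, the regulatory subunit gene, had 1086 and 1824 counts, 89.3 and 143.2 CPM (1.60-fold higher, 1.49 to 1.73), and shares 462 exonic bases with Wdr92 on the same strand. Ppp3cc was rare at 42 and 50 counts, with an interval that includes equality (ratio 1.14, 0.74 to 1.76). Ppp3ca made up 73.1% of catalytic subunit counts (71.6 to 74.5) in the wild type-labelled library and 66.1% (64.7 to 67.5) in the other. After adjustment Ppp3cb lay at 0.13 and Ppp3r1 at 0.40 on the log2 scale. Of the calcineurin inhibitor genes, Rcan1 had 168 and 178 counts, 13.8 and 14.0 CPM, a log2 ratio of 0.02 (-0.29 to 0.33) that turned to -0.02 with upper-quartile scaling. Rcan3, a second member of the family, had 96 and 200 counts, 7.89 and 15.7 CPM. Its ratio of 1.99 (1.55 to 2.57) was just short of the 2-fold rule. Its log2 ratio passed 2-fold at 1.06 when scaled by total count and at 1.03 by DESeq2 size factors. It was under 2-fold at 0.96 with upper-quartile scaling and at 0.71 (0.35 to 1.08) after adjustment.

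NFAT transcription factor genes, the substrates of calcineurin and the related Nfat5, all had ratios whose interval lay above 1, with Nfat5 turning to -0.13 (log2) after adjustment. Nfatc2 had 88 and 270 counts, 7.23 and 21.2 CPM (2.93-fold higher, 2.30 to 3.77). Adjustment took its log2 ratio from 1.55 to 1.34 (0.98 to 1.70), still past 2-fold. Nfatc3 was the most counted of the family, with 1063 and 2012 counts, 87.4 and 158.0 CPM (1.81-fold higher, 1.68 to 1.95). Nfatc1 had 911 and 1492 counts, 74.9 and 117.2 CPM (1.56-fold higher, 1.44 to 1.70). After adjustment Nfatc3 went from a log2 ratio of 0.85 to 0.32, and Nfatc1 from 0.65 to 0.52. Per kilobase Nfatc1 and Nfatc3 were near each other in both libraries, at 15.6 and 14.6 CPM per kilobase and then 24.4 and 26.4, and Nfatc2 was the lowest of the 4 at 1.06 and 3.11. Nfat5, which responds to osmotic stress and is not a calcineurin substrate, had 335 and 572 counts (1.63-fold higher, 1.42 to 1.87). Its transcript is the longest of the 42 at 13380 bases, and its log2 ratio of 0.71 turned to -0.13 (-0.32 to 0.07) after adjustment. Within the family Nfatc2 went from 3.67% of counts (2.95 to 4.50) to 6.21% (5.51 to 6.97), and the share of Nfatc3 was 44.3% (42.3 to 46.4) and 46.3% (44.8 to 47.8), with overlapping intervals.

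**Figure D3:**
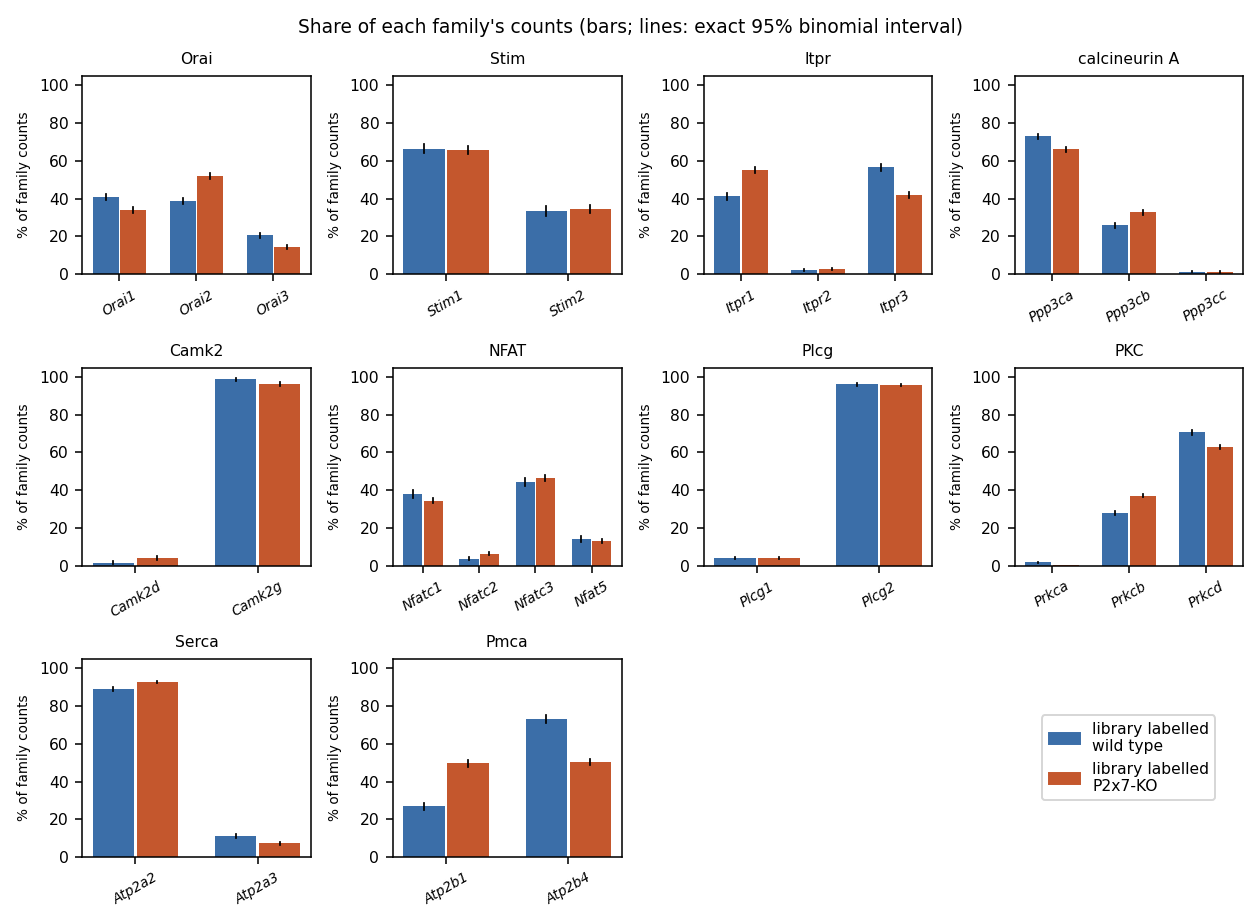
Share of the counts of 10 gene families taken by the members shown (vertical axis, percent). Bars are 1 per library and lines are exact 95% binomial intervals. Genes outside the 42, such as Camk2a, are not in the totals. Atp2b1 goes from 26.8% to 49.7% of the plasma membrane pump pair and Itpr1 from 41.1% to 55.1% of its family, while Stim1 and Plcg2 keep shares whose intervals overlap.

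The protein kinases C held both the lowest ratio of the 42 genes and a gene called higher. Prkca, a conventional calcium-dependent isoform, is encoded at chr11:107933387-108343928 (mm10, minus strand). It had 93 counts in the wild type-labelled library and 9 in the P2x7-KO-labelled library, 7.65 CPM (6.17 to 9.37) and 0.71 CPM (0.32 to 1.34). It was thus 10.8-fold lower (5.46 to 24.4). Its transcript of 8409 bases is among the long ones, and adjustment moved its log2 ratio from -3.44 to -4.10 (-5.28 to -3.12). Prkcb, a second conventional isoform that is abundant in blood cells, is encoded at chr7:122288751-122634402 (mm10, plus strand). It had 1531 and 3324 counts, 125.9 CPM (119.6 to 132.3) and 261.0 CPM (252.2 to 270.1), a 2.07-fold ratio (1.95 to 2.20) just past the 2-fold rule. After adjustment its log2 ratio was 1.03 (0.94 to 1.12), against 1.05 before it. The length used for it, 2911 bases, is that of the longest annotated protein-coding transcript. Prkcd, an isoform that needs diacylglycerol but not calcium, had 3892 and 5628 counts, 319.9 and 442.0 CPM (1.38-fold higher, 1.33 to 1.44). Prkcd was the most counted of the 3 in both libraries, with 70.6% of their counts (69.3 to 71.8) and 62.8% (61.8 to 63.8). Prkca went from 1.69% (1.36 to 2.06) to 0.10% (0.05 to 0.19) and Prkcb from 27.8% (26.6 to 29.0) to 37.1% (36.1 to 38.1).

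**Figure D4:**
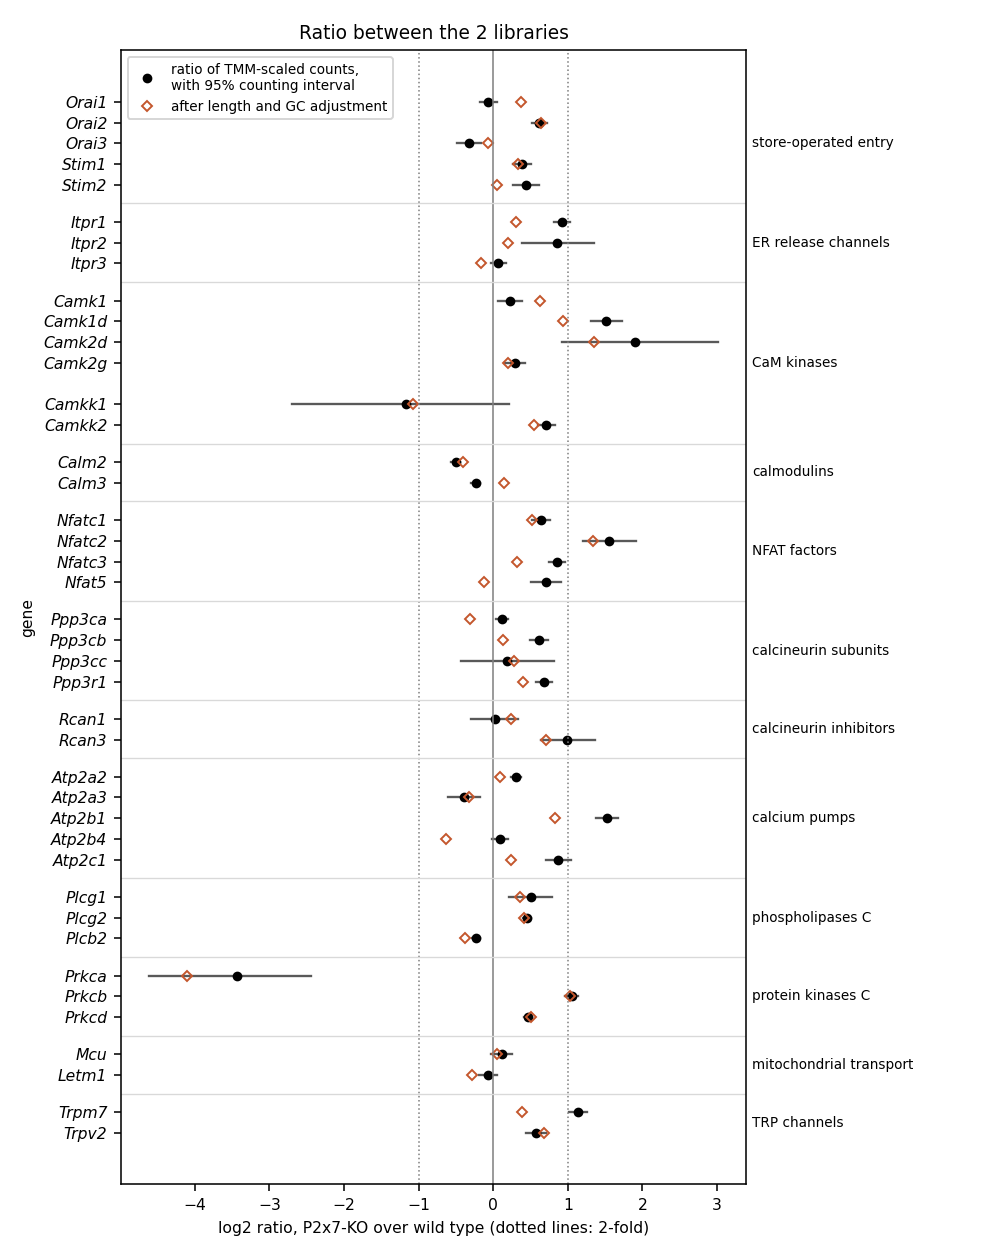
Log2 ratio of P2x7-KO over wild type for the 41 calcium genes with at least 20 counts (filled points with 95% counting intervals) and the same after length and GC adjustment (open diamonds), by role; dotted lines mark 2-fold. Prkca lies furthest left at -3.44, Camk2d, Nfatc2 and Prkcb stay past the right line after adjustment, and the 6 genes whose direction turns (Orai1, Itpr3, Calm3, Nfat5, Ppp3ca and Atp2b4) have point and diamond on opposite sides of equality.

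The order of the genes by level was much alike in the libraries. Across the 42 genes, CPM per kilobase in the 2 libraries had a Spearman correlation of 0.97, a description of genes measured in the same pair of libraries. Of the 6 highest genes per kilobase, 5 were the same in both. Summed over the 42 genes, the level was 4393 CPM in the wild type-labelled library and 5343 CPM in the other, 1.22-fold higher.

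Other genes of the pathway were taken from 8 lists fixed by symbol, with 135 names, of which 134 were in the table and 94 had at least 20 counts. At least 2-fold higher were 13 of the 94 and lower were 4 (against the 10.8% and 8.95% of all genes), with a median log2 ratio of 0.17. After adjustment the counts were 9 higher and 3 lower (against 7.71% and 5.38% of all genes), and the median was 0.08. Among the entry channels, Trpm2, a calcium-permeable channel gated by ADP-ribose, had 310 and 1063 counts (3.28-fold higher, 2.88 to 3.73). Cacna1d, a voltage-gated channel gene, had 110 and 372 (3.23-fold higher, 2.60 to 4.03). Both stayed past 2-fold after adjustment, at log2 ratios of 1.40 and 1.08. The store-operated regulator gene Saraf was near equality, with 863 and 893 counts (ratio 0.99, 0.90 to 1.09). In the store, the luminal calcium buffer gene Calr had 31378 and 15945 counts (2.06-fold lower, 2.02 to 2.10), and it came under 2-fold after adjustment, at -0.98. Of the 13 store and luminal genes counted, Calr was the 1 called before adjustment. After it the 1 called was the ER chaperone gene Hspa5, with 12395 and 7503 counts (1.73-fold lower, 1.68 to 1.78), at an adjusted log2 ratio of -1.08 (-1.13 to -1.04). Of 3 other pumps and exchangers 0 were called, before or after adjustment.

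Further protein kinase C genes were called in both directions, and the counts of each list below are to be read against the 10.8% of all genes called higher and 8.95% called lower. Prkch had 58 and 244 counts (4.02-fold higher, 3.01 to 5.45) and the atypical isoform gene Prkci had 217 and 643 (2.83-fold higher, 2.42 to 3.32), and both stayed past 2-fold after adjustment, at log2 ratios of 1.96 and 1.04. The protein kinase D gene Prkd3 had 781 and 1749 counts (2.14-fold higher, 1.97 to 2.33), which became 0.52 on the log2 scale. Rasgrp2, a calcium- and diacylglycerol-regulated exchange factor gene, had 221 and 109 counts (2.12-fold lower, 1.68 to 2.69), which became -0.72. The atypical isoform gene Prkcz had 35 and 10 counts (3.66-fold lower, 1.78 to 8.30). The phospholipase C gene Plcb1 had 8 and 68 counts (8.12-fold higher, 3.90 to 19.6), with an adjusted log2 ratio of 2.36. This list of 17 counted genes had 4 called higher and 2 lower. Among 12 counted calmodulin and CaM kinase genes, 2 were higher, and of these Dapk2, a calmodulin-regulated death-associated kinase gene, had 83 and 266 counts (3.06-fold higher, 2.38 to 3.97). Among 13 counted calcineurin and NFAT regulators 1 was higher: Lrrk2, with 539 and 1272 counts (log2 ratio 1.17, 1.03 to 1.32), which became 0.49. Of 10 counted mitochondrial uptake genes 2 were higher. Micu3, a regulator of the uniporter, had 42 and 94 counts (2.14-fold, 1.47 to 3.15), which became 0.71 on the log2 scale and was no longer called. Ccdc109b had few counts, 6 and 47 (7.48-fold higher, 3.19 to 21.4), and stayed past 2-fold at 3.24 (2.01 to 4.75). Of 15 nuclear targets of CaM kinase and calcineurin, the transcription factor genes Mef2a (462 and 1218 counts, 2.52-fold, 2.26 to 2.81) and Atf1 (592 and 1242 counts, log2 interval 0.86 to 1.15) were higher, and both came under 2-fold after adjustment (0.73 and 0.90). Tfeb, a transcription factor gene of the same list with 534 and 762 counts (log2 ratio 0.45), passed 2-fold after adjustment, at 1.05 (0.89 to 1.21).

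Marker genes of other cell types also differed between the libraries. Over all genes 10.8% were called higher and 8.95% lower, and lists with few counted markers give only coarse counts. Of 9 counted monocyte and macrophage markers, 5 were at least 2-fold higher and 0 lower in the P2x7-KO-labelled library, and the 10 markers listed summed to 2319 and 3660 CPM. Of 5 counted mast cell and basophil markers 2 were lower, with a sum of 520.9 and 111.5 CPM over 7 listed, among which Fcer1a was at 0 in both. Neutrophil markers had 1 higher and 1 lower of 9 counted, at 3474 and 3037 CPM in sum over 10, with a median log2 ratio of 0.49. The most counted of them in the wild type-labelled library, S100a9 (12379 and 9618 counts) and S100a8 (11675 and 4824 counts), had lower levels in the other. After adjustment 3 neutrophil markers were higher and 0 lower, where 7.71% of all genes were higher and 5.38% lower. S100a8 came under 2-fold at -0.88, and Csf3r (1.03) and Mmp9 (1.06) passed it. The called counts of the other marker lists were the same after adjustment. B cell markers, with 2 higher and 1 lower of 4 counted, summed to 133.0 and 102.7 CPM over 9, with Ms4a1, Pax5 and Ebf1 at 0 in the wild type-labelled library. T and NK markers, with 2 lower of 2 counted, summed to 35.4 and 13.6 CPM over 10, with Ncr1 at 0 in both and Cd3e and Cd8a at 0 in the wild type-labelled library. Erythroid markers, with 2 higher of 2 counted, summed to 0.99 and 10.1 CPM over 7, with Alas2 and Epor at 0 in the wild type-labelled library. Of 7 megakaryocyte and platelet markers, Pf4 and Ppbp were at 0 in both, 1 was higher and 1 lower of 2 counted, and the sums were 41.4 and 16.7 CPM. The part of these cell types in the ratios of the calcium genes was not tested.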

How the data were processed

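The deposited table gives raw counts per gene for 46095 genes in 2 libraries, with 0 columns left out. HISAT2 2.0.4 and the build mm10 are named per the submitters' processing notes, but the counter, its annotation and strand setting, and how it treated multiply matched reads were not stated. Without a stated strand setting, reads of overlapping or antisense genes cannot be told apart, and 4 calcium genes share exonic bases with another counted gene.

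From the deposited counts, scaled levels were computed with TMM (edgeR 4.0.16, R 4.3.3), and ratios with exact Clopper-Pearson 95% intervals. Medians of log2 ratios used 0.5 added to each count. With 3 counts as the limit, a gene at 0 is limited to 0.247 CPM (wild type) and 0.236 CPM (P2x7-KO). No test between genotypes was made, since each group holds 1 library. Reads are not independent molecules, so intervals cover counting error only. Length and GC content came from the longest GENCODE M21 transcript of each symbol, taken among protein-coding ones where it had any. This covered 94.8% of counted genes and 42 of the 42 calcium genes. The loess trend on length and GC content (span 0.5), centred on its median, was subtracted. The calls were tested on simulated data that held counting error only, which says nothing of differences between mice or sorts.

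The calcium genes and the lists were chosen with earlier results of these data known. The text gives every one of the 42, and of the other lists genes past 2-fold with at least 100 counts, at most 4 per list by the nearer interval bound. Saraf, Hspa5, Tfeb, Prkcz, Plcb1, Ccdc109b, Camk2a, Camk2b and the neutrophil genes were named after their values were seen. Alternatives were scaling by total count, DESeq2 1.42.0 size factors or upper-quartile, adjustment for length alone or with GC content, other count minimums, 1 added to each count and a 1.5-fold threshold.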

Additional observations from a re-analysis of the deposited data

How the results depend on the processing

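Each of the 42 calcium genes kept its direction under the other scalings except Orai1 (log2 ratio 0.00 with total count scaling) and Rcan1 (-0.02 with upper-quartile scaling), and the calls changed for Rcan3 only. Adjustment for length alone left 3 calcium genes at least 2-fold higher, with a median log2 ratio of 0.15 (8.11% of all genes were higher and 5.92% lower), and adjustment for length and GC content left 3, with a median of 0.28; Camk1d, Atp2b1 and Trpm7 came under 2-fold in both. The median was 0.52 with total count scaling. A 1.5-fold threshold gave 17 calcium genes higher, and 26 other pathway genes higher and 10 lower. Of all genes, 21.1% were then higher and 18.9% lower. Together with the length and GC adjustment, a combination added after seeing the data, it gave 2 calcium genes and 7 other pathway genes lower (13.0% of all genes were). A minimum of 100 counts left 2 other pathway genes lower, against 6.61% of all genes. The count of calcium genes higher stayed within 1.5 times of 6 with the other minimums and scalings. The cause of these shifts was not tested. Counts under about 100, as for Camk2d, Camkk1, Ppp3cc, Camk4 and Prkca in both libraries and Nfatc2, Itpr2 and Rcan3 in the wild type-labelled library, limit the precision. No paired analysis was possible because each group holds 1 library.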
